A study of Homo sapiens with 42 samples.

Results

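The genes described here are 9 genes of the MHC class I pathway: the class I heavy chains HLA-B, HLA-C, HLA-E and HLA-F, the light chain B2M, the peptide transporter subunits TAP1 and TAP2, the transporter-bound chaperone tapasin (TAPBP), and NLRC5, the transactivator of class I genes. They were picked by symbol out of 57353 gene names, each matched 1 row, and all 9 passed the filter on low counts that left 12939 genes to test. Other class I genes were not analysed here. On GRCh38 all but 2 of the 9 genes lie on chromosome 6, in or near the MHC: HLA-F (chr6:29722775-29738528) and HLA-E (chr6:30489509-30494194) on the plus strand, and HLA-C (chr6:31268749-31272130), HLA-B (chr6:31353872-31367067), TAP2 (chr6:32821833-32838739), TAP1 (chr6:32845209-32853816) and TAPBP (chr6:33299694-33314284) on the minus strand. B2M (chr15:44711358-44718851) and NLRC5 (chr16:56989485-57083531) are on the plus strand of their chromosomes. The RNA came from MOLM-13, an established acute myeloid leukemia (AML) line with an internal tandem duplication of the receptor kinase FLT3 (FLT3-ITD). Cells were kept for 12 hr either in RPMI with serum or in hBMSC-CM, in which part of the RPMI was replaced by medium that HS-5 cells, a human marrow stromal line, had conditioned. RPMI cultures received vehicle (DMSO), 3 nM quizartinib (AC220, a FLT3 inhibitor) or combo, which is quizartinib with 10 nM everolimus, an mTORC1 inhibitor. hBMSC-CM cultures received vehicle, quizartinib, everolimus or combo at the same doses. No RPMI culture with everolimus alone is analysed here. Each of the 7 conditions had 3 cultures of this single cell line, labelled replicates 1 to 3, and from each culture the poly(A) RNA of the whole lysate (input) and of the heavy polysome fraction were sequenced, which gave 42 libraries. The labels do not say that the replicates were set up independently, so p-values measure only the spread between these samples.

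MHC class I molecules show peptides of intracellular proteins to CD8 T cells and are ligands of receptors on natural killer cells. Peptides cut by the proteasome are carried into the endoplasmic reticulum by the TAP1-TAP2 transporter, are fitted into a heavy chain bound to B2M with the help of tapasin, calreticulin and ERp57, and travel with it to the cell surface. Transcription of the pathway rises with interferons, through STAT2 and the IRF factors, and with NLRC5, which acts on the promoters of heavy chain genes, B2M, TAP1 and the immunoproteasome. Heavy polysomes hold messages that carry several ribosomes, so the heavy polysome level minus the input level of a gene describes how its messages are shared between that fraction and the whole.

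The promoters were searched for fixed patterns of letters, only some of which are known to be bound by interferon-activated factors. A gene without a match may still carry such an element in another spelling. RefSeq promoters of build GRCh38.p14 were given for 7 of the 9 genes (8 promoters, 2 of them of TAP1), but not for HLA-E and NLRC5. The 250 bases before each RefSeq start were searched on both strands. The gene spans above come from another annotation (GENCODE), so promoter stretches can lie inside them, as for HLA-B and HLA-F. The interferon-stimulated response element core, searched as GAAA, any 2 bases and GAAA again, was found in 5 of the 7 genes, against 3.02% of 35116 promoters of the same length. Matches are in capitals, and in B2M, TAP1 and TAPBP they are 2 that overlap each other, in these 30-base stretches, each read 5′ to 3′ on the strand of its gene:
HLA-F (chr6:29723268-29723297, plus strand): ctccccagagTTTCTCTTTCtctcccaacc
B2M (chr15:44711366-44711395, plus strand): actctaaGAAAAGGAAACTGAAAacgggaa
TAP1 (chr6:32853816-32853845, minus strand): cggccgcTTTCGATTTCGCTTTCccctaaa
TAP2 (chr6:32838778-32838807, minus strand): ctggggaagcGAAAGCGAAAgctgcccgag
TAPBP (chr6:33314079-33314108, minus strand): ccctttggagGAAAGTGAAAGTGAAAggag

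The Y box letters ATTGG, or CCAAT on the other strand, which are part of the enhanceosome module that NLRC5 acts through, were found in 5 of the 7 genes, against 32.0% of all promoters. HLA-B, HLA-C and HLA-F held them in nearly the same surroundings, shown here with the Y box letters in capitals:
HLA-B (chr6:31357219-31357248, minus strand): atatctagagaagCCAATcagcgtcgccgc
HLA-C (chr6:31272132-31272161, minus strand): ggttctagagaagCCAATcagcgtctccgc
HLA-F (chr6:29723364-29723393, plus strand): gtttctagagaagCCAATcagtgtcgccgc

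Of the other motifs, the CRE letters TGACG were found in 4 of the 7 genes (21.2% of all promoters), the GAS letters TTCNNNGAA in 1 (6.57%) and the kB letters, GGGA, any base and TTCCC, in 0 (0.396%). All were searched on both strands, and no match of one motif overlapped that of another. Each motif was searched as 1 fixed pattern, so elements spelled with other letters could be missed. The lack of a match does not show that a promoter lacks the element. A match is a description of letters and not a binding site.

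Total counts were 19.4 to 37.2 M in the 21 input libraries and 21.5 to 38.8 M in the 21 polysome libraries. The 9 genes together held 0.508 to 1.03% of the input counts and 0.913 to 3.13% of the polysome counts. All 8 AML line markers were present in every input library. The 10 stromal markers summed to 2.19 to 8.39 CPM (counts scaled to the library total) in input, with COL3A1, LUM and POSTN at 0. Of 5 T, NK and B cell markers only NKG7 exceeded 2 CPM in input (24.6 to 198 CPM), and the 3 erythroid markers reached at most 0.169 CPM.

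The everolimus libraries stood apart in how closely they resembled each other. Within the other 6 conditions, libraries of the same number deviated from their group means together (Pearson r 0.284 to 0.658 over 45 input pairs and 0.153 to 0.715 over 45 polysome pairs, across genes, which are not independent replicates), so the numbers pair the samples there. With everolimus the same correlations were -0.059 to 0.002 over 18 input pairs. The 3 everolimus input libraries had a biological coefficient of variation of 0.0716 against 0.181 to 0.296 in the other input groups, and still differed beyond counting noise (chi-square per gene 4.96 to 7.53). Beside results without everolimus, values from a fit with the replicate number as a block within each fraction are therefore given where they change a call.

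Per kilobase of exon, HLA-C, HLA-B, B2M and HLA-E were the most abundant of the 9 messages, and the transporter subunits, NLRC5 and the heavy chain HLA-F were present at a small share of them. In RPMI vehicle the input level was 667 ± 57.8 CPM per kb for HLA-C, 400 ± 62.4 for HLA-B, 212 ± 41.9 for B2M and 156 ± 16.2 for HLA-E (SD, n = 3). TAPBP stood at 48.8 ± 3.29 CPM per kb, TAP1 at 10.7 ± 1.54, NLRC5 at 3.16 ± 0.271, HLA-F at 1.56 ± 0.394 and TAP2 at 1.24 ± 0.0123. Each neighbour in this order was separated by more than the sum of their SDs, except B2M from HLA-E and HLA-F from TAP2. Per kilobase, HLA-C was the highest and HLA-B the next in all 7 conditions, and TAP2 was the lowest in all 7. This order depends on the lengths, which join all annotated exons of a gene (4623 bases for HLA-B, 2507 for HLA-C). Before division by length HLA-B had the higher mean CPM in all 7 conditions (1849 and 1671 CPM in RPMI vehicle). In RPMI vehicle HLA-F then stood below TAP2 (6.71 and 12.8 CPM). The raw counts behind these values were 148 to 514 per library for TAP2, 211 to 1243 for HLA-F and at least 43806 for HLA-B and HLA-C. HLA-B and HLA-C are near-identical in parts, so the split of reads between them is uncertain. Exons of TAP1 overlap those of an antisense gene over 672 bases, and those of TAPBP do so over 1397 bases. HLA-F exons overlap those of genes on the other strand over 1466 bases. HLA-B exons overlap those of other genes over 682 bases on the other strand and 1514 bases on its own, summed over these genes. TAP2 shares 2023 exon bases with a transcript on its own strand. Whether counting used the strand is not stated.

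**Figure D1:**
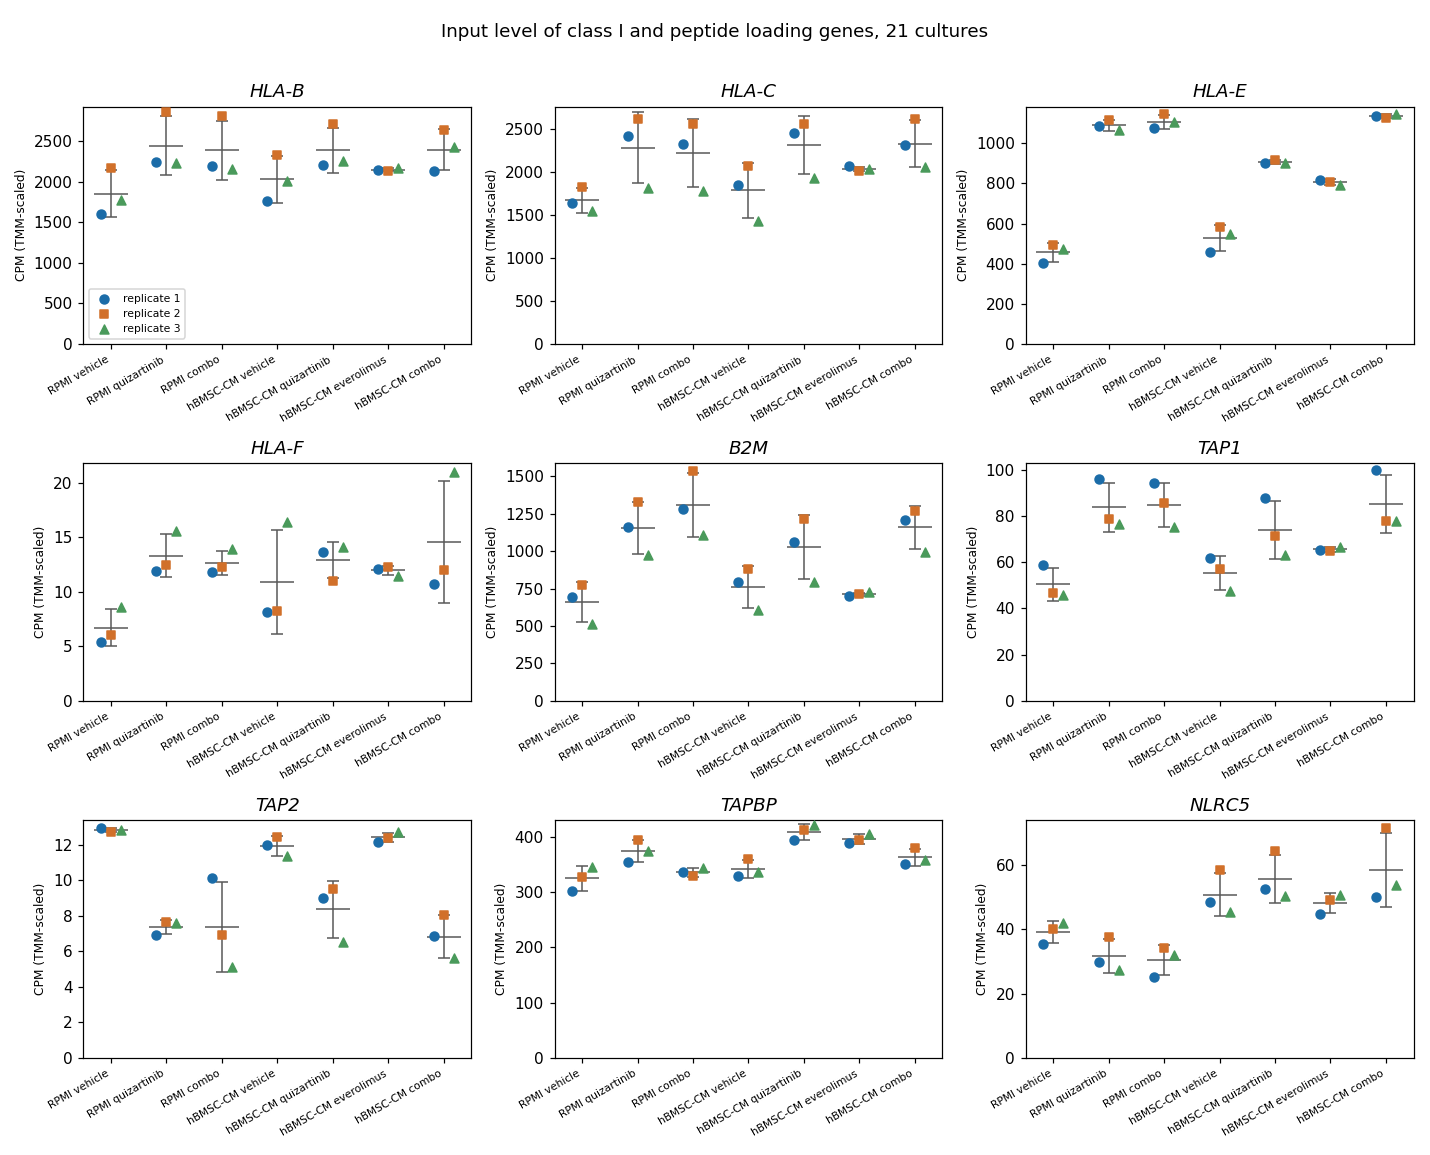
Input level of the 9 genes in CPM (TMM-scaled, linear axis from 0) in each of the 7 conditions, 1 point per culture with colour and shape for the replicate number, and the mean ± SD as a bar (n = 3). HLA-E rises from 404 to 495 CPM in RPMI vehicle to 1065 to 1116 CPM in RPMI quizartinib, TAP2 runs the other way, and the everolimus points lie close together.

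Inhibition of FLT3 by quizartinib in RPMI was the comparison that moved the most of these genes. HLA-E, HLA-F and TAP1 rose, TAP2 fell, and HLA-B, HLA-C, B2M, TAPBP and NLRC5 did not pass the test in edgeR's quasi-likelihood fit. This makes 4 of 9 genes at an adjusted p under 0.05 (Benjamini-Hochberg over 12939 genes), where 34.6% of all tested genes passed. In single directions 16.6% of all genes were higher and 18% were lower. For 7 of the 9 genes every treated culture lay beyond every vehicle culture, as it did for 55.7% of all genes. The median log2 change of the 9 was 0.45 and that of all tested genes 0.08. Since these are bulk libraries, fewer cells of a type and less RNA per cell cannot be told apart here or below. The stromal markers summed to 2.37 to 4.79 CPM in RPMI vehicle and 4.7 to 7.95 CPM in RPMI quizartinib, ranges that overlap. Of these markers TAGLN measured 1.53 to 6.94 CPM over all input libraries, and each of the others 2 CPM or less. Only 1 of the 10 passed the filter on low counts, and it was called higher (log2 change 0.98). The part of these markers in the result was not tested.

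HLA-E, a nonclassical heavy chain that presents signal peptides of other class I chains to the inhibitory NK receptor NKG2A, changed the most. Its input level was 404, 495 and 471 CPM in RPMI vehicle and 1085, 1116 and 1065 CPM in RPMI quizartinib. Each treated culture was above each vehicle culture, and the spread among treated cultures was small. The log2 change was 1.25 (SE 0.17, edgeR adjusted p = 2.35e-07), a 2.39-fold rise. HLA-F, another nonclassical chain that reaches the surface also without peptide, measured 5.44, 6.05 and 8.64 CPM with vehicle and 11.9, 12.4 and 15.6 CPM with quizartinib, again without overlap. Its log2 change was 0.99 (SE 0.26), with an edgeR adjusted p of 0.00276.

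The classical chains and their light chain were higher in each treated culture than in the vehicle culture of the same number, by amounts that did not pass in the edgeR fit of all libraries without a block. HLA-B measured 1601, 2165 and 1779 CPM with vehicle and 2240, 2860 and 2225 CPM with quizartinib (log2 change 0.40, SE 0.26, edgeR adjusted p = 0.247). HLA-C measured 1637, 1830 and 1546 CPM and then 2416, 2620 and 1821 CPM, so that 1 treated culture lay below 1 vehicle culture (0.45, SE 0.28, edgeR adjusted p = 0.231). B2M measured 694.5, 770 and 515.5 CPM and then 1162, 1326 and 975 CPM, with no overlap (0.81, SE 0.40, edgeR adjusted p = 0.121). In all 3 genes replicate 2 was the highest of its condition in both groups. With the replicate block within each fraction the adjusted p was 0.0167 for HLA-B, 0.0197 for HLA-C and 0.00025 for B2M. B2M also passed without a block when genes with low counts were kept (0.83, adjusted p = 0.00558) and when only the libraries compared were fitted (0.77, adjusted p = 0.00546). The fit with the block called 8 of the 9 genes, where 48.9% of all genes passed, the eighth being NLRC5, lower by 0.32 at an adjusted p of 0.0457. With the everolimus libraries also left out, a choice made after seeing the data, it again called 8 of 9 (54.6% of all genes), with TAPBP in place of NLRC5 (log2 change 0.29, adjusted p = 0.0153).

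The 2 subunits of the peptide transporter moved in opposite directions. TAP1 measured 58.8, 46.6 and 45.9 CPM with vehicle and 95.9, 78.9 and 76.6 CPM with quizartinib, a log2 change of 0.73 (SE 0.28, edgeR adjusted p = 0.0402). TAP2 measured 12.95, 12.7 and 12.8 CPM with vehicle and 6.92, 7.62 and 7.56 CPM with quizartinib, a log2 change of -0.80 (SE 0.24) with an edgeR adjusted p of 0.00829. In both genes every treated culture lay on the far side of every vehicle culture. The call of TAP1 was lost without replicate 1 or 2 of RPMI quizartinib or replicate 2 or 3 of RPMI vehicle (adjusted p 0.126, 0.063, 0.119 and 0.0876). That of TAP2 was lost when genes with low counts were kept in the fit (adjusted p = 0.0987). TAPBP, which bridges the transporter to the empty heavy chain, measured 301 to 345 CPM with vehicle and 355 to 394 CPM with quizartinib (0.21, SE 0.19, edgeR adjusted p = 0.422). NLRC5 measured 35.4, 40.1 and 41.9 CPM with vehicle and 29.8, 37.7 and 27.5 CPM with quizartinib, lower in 3 of 3 pairs with overlapping groups (-0.31, SE 0.21, edgeR adjusted p = 0.271).

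**Figure D2:**
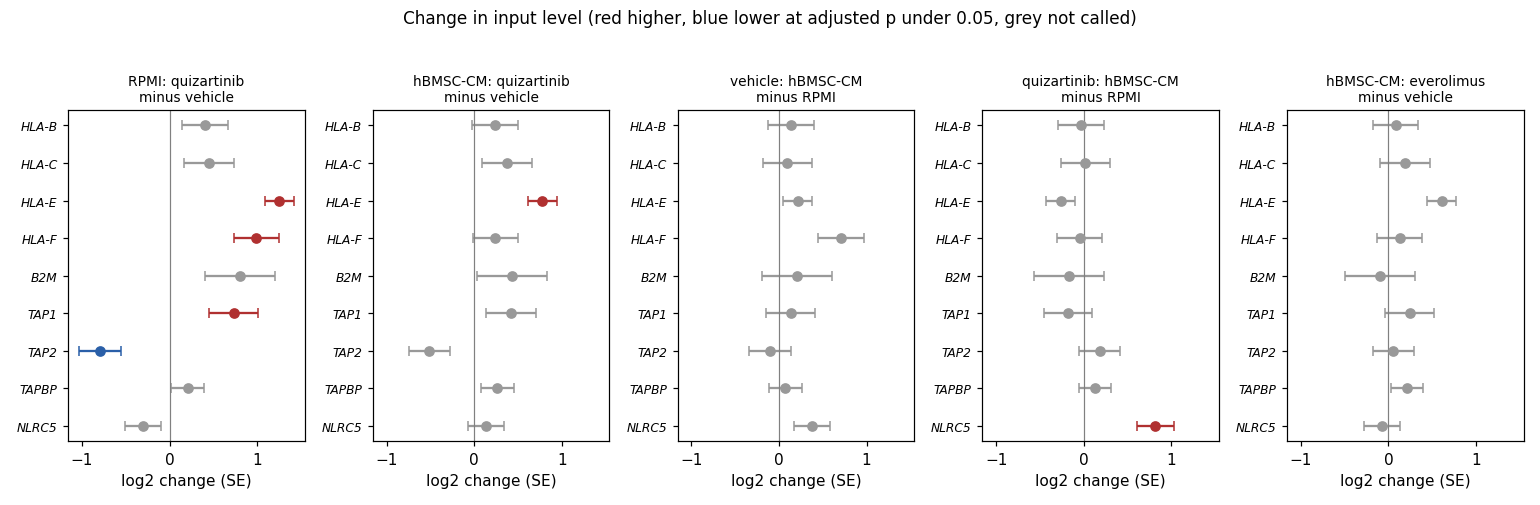
Log2 change of the input level of each gene with its SE (edgeR) in 5 comparisons, red where higher and blue where lower at an adjusted p under 0.05 and grey where not called. In RPMI, quizartinib gives 3 red points (HLA-E, HLA-F, TAP1) and 1 blue (TAP2), while HLA-E is the only coloured gene in hBMSC-CM and NLRC5 the only one between media under quizartinib.

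In hBMSC-CM the same drug raised HLA-E alone, 1 of 9 genes where 12.3% of all genes passed. The stromal markers, of which only 1 of 10 passed the filter, summed to 2.19 to 6.79 CPM with vehicle and 6.88 to 8.39 CPM with quizartinib. These sums did not overlap, and the part of the markers in the result was not tested. HLA-E went from 457, 582 and 548 CPM with vehicle to 902, 915 and 902 CPM with quizartinib (log2 change 0.78, SE 0.16, edgeR adjusted p = 0.00177). TAP1 measured 61.7, 56.9 and 47.4 CPM with vehicle and 87.7, 71.3 and 63 CPM with quizartinib, which did not overlap (0.42, SE 0.28, adjusted p = 0.357, and 0.0341 with the replicate block within each fraction). TAP2 measured 12, 12.4 and 11.3 CPM and then 9, 9.49 and 6.54 CPM, likewise without overlap (-0.51, SE 0.24, edgeR adjusted p = 0.158). The block called 2 of 9 genes (29.4% of all genes), and 5 of 9 once the everolimus libraries were left out (34.9%), which added HLA-C at 0.41, B2M at 0.46 and TAPBP at 0.30.

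Whether the 2 media differed in the drug effect was tested as an interaction, and 0 of the 9 genes passed (1.96% of all genes did in edgeR). At an unadjusted p under 0.05, HLA-E and HLA-F did. The log2 change of HLA-E in hBMSC-CM minus that in RPMI was -0.48 (SE 0.23, edgeR adjusted p = 0.486), below 0 in each of the 3 replicate numbers. HLA-F had a difference of -0.75 (SE 0.36, edgeR adjusted p = 0.481), which was called with the block and the everolimus libraries left out (adjusted p = 0.0303, 9.83% of all genes) and not with the block alone. DESeq2 and limma voom called 0 of the 9 as well.

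Between the media without drug, 0 of 9 genes passed in edgeR (1.51% of all genes), and only HLA-F had an unadjusted p under 0.05. HLA-F measured 8.12, 8.24 and 16.4 CPM in hBMSC-CM vehicle against 5.44, 6.05 and 8.64 CPM in RPMI vehicle, so that replicate 3 of hBMSC-CM stood far above the other cultures. The log2 difference was 0.71 (SE 0.26, edgeR adjusted p = 0.269), with an adjusted p of 0.014 under the replicate block within each fraction (4.52% of all genes) and of 0.00808 with the everolimus libraries also left out (7.03%), and it was 0.31 without replicate 3 of hBMSC-CM vehicle. DESeq2 and limma voom also called 0 of the 9. NLRC5 was higher in all hBMSC-CM cultures (45.5 to 58.4 CPM) than in all RPMI cultures (35.4 to 41.9 CPM), at a log2 difference of 0.38 (SE 0.21, edgeR adjusted p = 0.784). Under quizartinib NLRC5 was higher in hBMSC-CM than in RPMI, 1 of 9 genes where 8.16% of all genes passed. It measured 52.4, 64.3 and 50.5 CPM in hBMSC-CM quizartinib and 29.8, 37.7 and 27.5 CPM in RPMI quizartinib, with no overlap and a log2 difference of 0.82 (SE 0.21, edgeR adjusted p = 0.00899). The call was lost without replicate 2 of hBMSC-CM quizartinib (adjusted p = 0.0649) or replicate 1 of RPMI quizartinib (adjusted p = 0.0543). The T, NK and B cell markers, nearly all of it NKG7, summed to 120 to 192 CPM in hBMSC-CM quizartinib and 31.8 to 58.6 CPM in RPMI quizartinib, with the other 4 at 1.46 CPM or less, and their part in the result was not tested. The other 8 genes differed between the media under the drug by -0.27 (HLA-E) to 0.18 (TAP2) on the log2 scale. This comparison shares its RPMI quizartinib libraries with the drug effect in RPMI.

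Adding everolimus to quizartinib moved none of the 9 genes past the threshold in edgeR, in RPMI (0.00773% of all genes passed) or in hBMSC-CM (0.24%), and none had an unadjusted p under 0.05. DESeq2 and limma voom also called 0 in both media. The change closest to it was that of HLA-E in hBMSC-CM, from 902, 915 and 902 CPM with quizartinib to 1135, 1127 and 1146 CPM with combo (log2 change 0.33, SE 0.16, edgeR adjusted p = 0.837), which did not overlap. For HLA-B the 2 SE interval of the added effect ran from -0.56 to 0.49 in RPMI and from -0.52 to 0.53 in hBMSC-CM on the log2 scale. Added effects within these intervals are compatible with the data, and the intervals are not limits of detection. Everolimus alone in hBMSC-CM called 0 of 9 genes in edgeR (0.41% of all genes), with HLA-E under an unadjusted p of 0.05. HLA-E measured 819, 809 and 792.5 CPM with everolimus against 457, 582 and 548 CPM with vehicle, a log2 change of 0.61 (SE 0.16, edgeR adjusted p = 0.0852). The adjusted p was 0.021 in DESeq2 and 0.0497 in limma voom. The everolimus libraries carry numbers that do not pair with the vehicle cultures. The labels do not say how these cultures were set up, and whatever sets the everolimus libraries apart cannot be told apart from the drug in this comparison.

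HLA-E thus had its lowest mean in RPMI vehicle and its highest in hBMSC-CM combo (457 and 1136 CPM, 2.49-fold), and the same 2 conditions were the extremes of HLA-C (1.4-fold), HLA-F (2.17-fold) and TAP1 (1.69-fold). B2M ranged 1.98-fold, from RPMI vehicle to RPMI combo. TAP2 had its highest mean in RPMI vehicle (12.8 CPM) and its lowest in hBMSC-CM combo (6.81 CPM). NLRC5 had means of 30.4 to 39.1 CPM over the RPMI conditions and 48.2 to 58.4 CPM over the hBMSC-CM conditions.

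**Figure D3:**
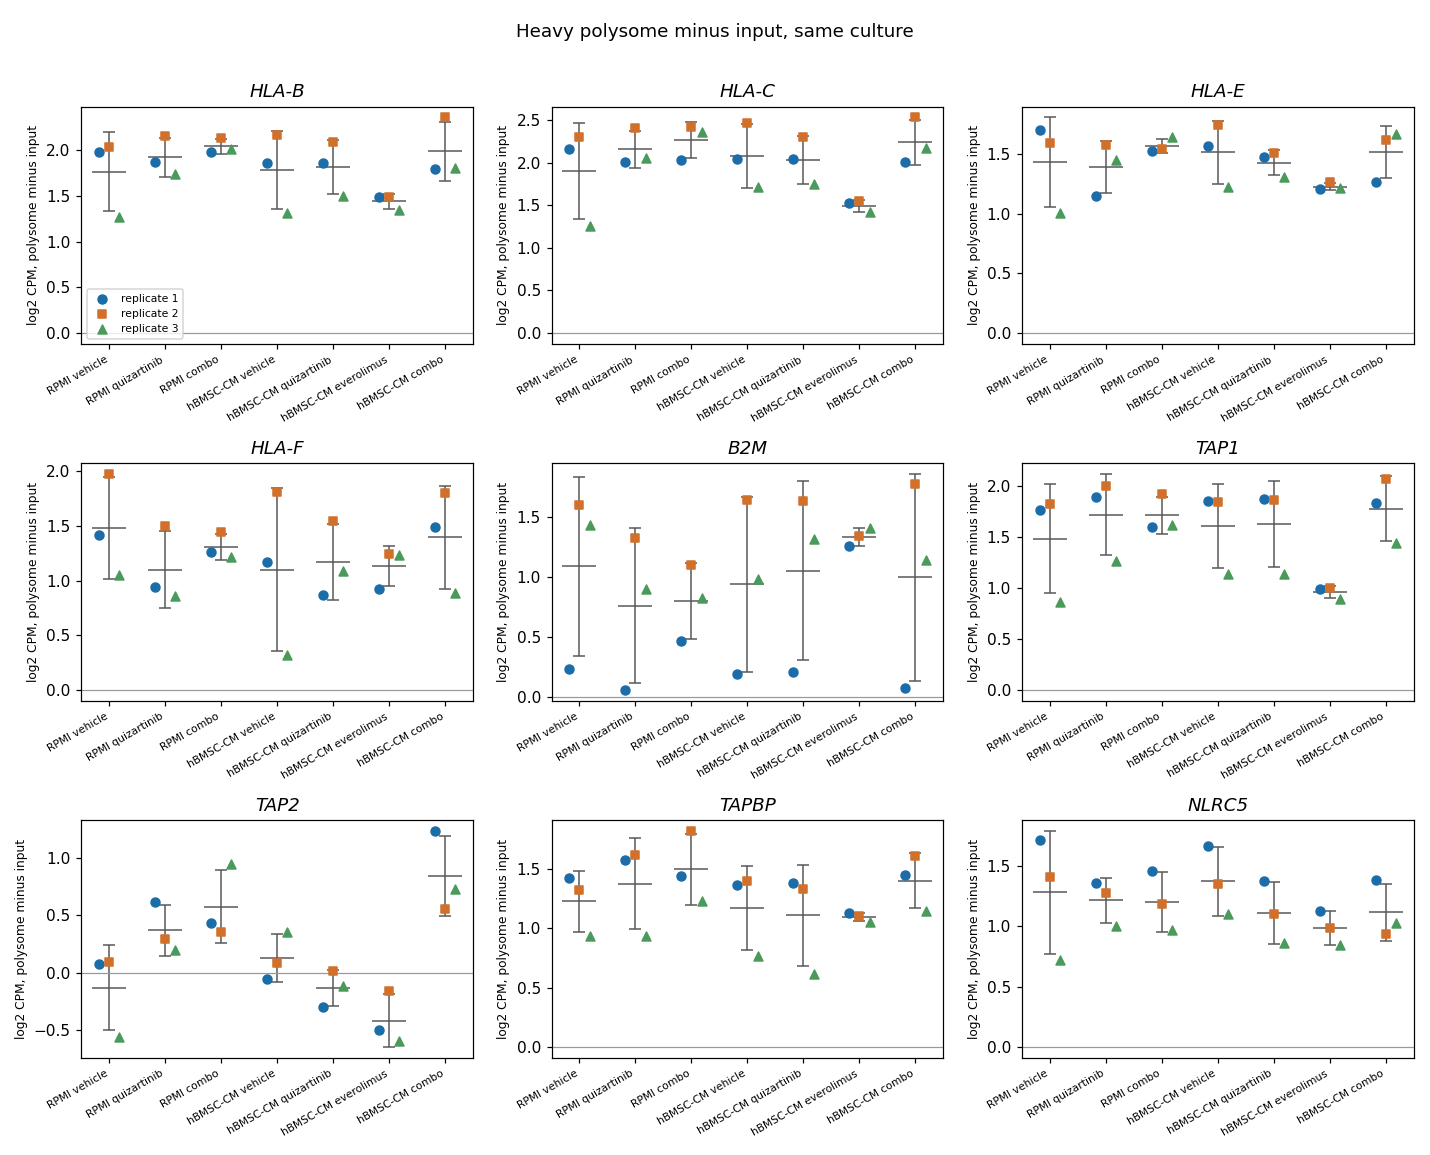
Log2 CPM in the heavy polysome library minus log2 CPM in the input library of the same culture, for 9 genes and 7 conditions, 1 point per culture (colour and shape give the replicate number) with the mean ± SD as a bar (n = 3), and 0 drawn as a line. All points of 8 genes lie above 0, those of TAP2 lie on both sides, and replicate 1 is the lowest for B2M in each condition.

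In heavy polysomes the messages of the class I pathway were over-represented, apart from TAP2. In all 21 cultures the polysome level of HLA-B, HLA-C, HLA-E, HLA-F, B2M, TAP1, TAPBP and NLRC5 exceeded the input level. TAP2 did so in 14 of 21. By the edgeR test of polysome against input, the number of genes called higher was 8 of 9 in RPMI vehicle (31.5% of all genes were higher), 7 in RPMI quizartinib (31.2%), 8 in RPMI combo (31.7%), 8 in hBMSC-CM vehicle (29.6%), 8 in hBMSC-CM quizartinib (29.7%), 8 in hBMSC-CM everolimus (27.9%) and 9 in hBMSC-CM combo (32.9%). The median over the 9 genes was 1.14 to 1.51 on the log2 scale, and that over all tested genes -0.11 to 0.06. Scaling by library size only lowered the median of all genes to between -0.63 and -0.22, and on that scale the 7 genes other than B2M and TAP2 stayed higher at an adjusted p under 0.05 in every condition, apart from HLA-F in hBMSC-CM vehicle (0.54, adjusted p = 0.0624). That call of HLA-F was also lost without replicate 2 of hBMSC-CM vehicle (0.66, adjusted p = 0.0642).

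The classical heavy chains stood highest. HLA-C had polysome levels of 7285, 9004 and 3696 CPM in RPMI vehicle against input levels of 1637, 1830 and 1546 CPM, and of 9709, 13850 and 7536 CPM against 2416, 2620 and 1821 CPM with quizartinib. Its fitted log2 difference was 2.00 (SE 0.29, edgeR adjusted p = 8.42e-07) in RPMI vehicle, 2.18 in RPMI quizartinib, 2.28 in RPMI combo, 2.15, 2.07 and 2.27 in hBMSC-CM vehicle, quizartinib and combo, and 1.5 in hBMSC-CM everolimus. A larger difference was found for 0.294 to 3.25% of all genes. HLA-B followed with 1.44 in hBMSC-CM everolimus to 2.05 in RPMI combo. Their polysome levels ran together over the 21 cultures (Pearson r = 0.976, a description only, since the split of their reads is uncertain). HLA-E differed by 1.23 to 1.57 and HLA-F by 1.05 to 1.49.

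Among the loading genes, TAP1 and TAP2 parted again. TAP1 measured 199.5, 164 and 83.7 CPM in polysomes of RPMI vehicle against 58.8, 46.6 and 45.9 CPM in input (1.56, SE 0.29, edgeR adjusted p = 1.89e-05), and over the 7 conditions its difference was 0.96 to 1.80. TAP2 measured 13.7, 13.5 and 8.69 CPM in polysomes of RPMI vehicle against 12.95, 12.7 and 12.8 CPM in input (-0.10, SE 0.24, edgeR adjusted p = 0.726). Its difference ranged from -0.41 in hBMSC-CM everolimus to 0.86 in hBMSC-CM combo, where the test was passed (SE 0.24, edgeR adjusted p = 0.00222), as it was in RPMI combo (0.55, SE 0.24, edgeR adjusted p = 0.0471). The first of these calls was lost without replicate 1 of hBMSC-CM combo (0.56, adjusted p = 0.095), with library size only (0.45, adjusted p = 0.0975) and with only the libraries compared (0.76, adjusted p = 0.0503). The second was lost without replicate 2 or 3 of RPMI combo (adjusted p 0.0811 and 0.395), and with 5 of the other alternatives (adjusted p 0.0564 to 0.276). With library size only, TAP2 was lower in polysomes in RPMI vehicle (-0.67, adjusted p = 0.0135), hBMSC-CM quizartinib (-0.58, 0.0348) and hBMSC-CM everolimus (-0.73, 0.00888). None of these was called in the edgeR fit of all libraries with TMM factors. TAPBP differed by 1.09 to 1.51 and NLRC5 by 0.98 to 1.39, both called in all 7 conditions.

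B2M, the small light chain that all class I molecules share, differed in its polysome share by the replicate number. In the 6 conditions without everolimus alone, the polysome minus input difference was 0.06 to 0.47 in replicate 1, 1.10 to 1.78 in replicate 2 and 0.83 to 1.44 in replicate 3. Replicate 1 was the lowest and replicate 2 the highest in 6 of 6 conditions. In hBMSC-CM everolimus the 3 cultures lay at 1.26, 1.34 and 1.41. The fitted difference of B2M was 0.84 in RPMI combo to 1.34 in hBMSC-CM everolimus, and it missed the threshold in RPMI quizartinib (0.88, SE 0.40, edgeR adjusted p = 0.0607) and RPMI combo (0.84, SE 0.40, edgeR adjusted p = 0.0702). Both passed with the replicate block within each fraction (adjusted p 0.0003 and 0.000142). Its calls in RPMI vehicle, hBMSC-CM vehicle, quizartinib and combo were each lost without replicate 2 (adjusted p 0.123, 0.285, 0.174 and 0.245) or replicate 3 (0.0582, 0.0613, 0.0519 and 0.0624). They were lost as well with library size only, at differences of 0.64, 0.53, 0.73 and 0.715 (adjusted p 0.142, 0.226, 0.1 and 0.102). For other genes replicate 3 was the low one: TAPBP was lowest there in 6 of 6 conditions, and HLA-F, TAP1 and NLRC5 in 5 of 6.

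The shift between fractions did not change detectably with drug or medium. The polysome change minus the input change was called for 0 of 9 genes in each of 7 comparisons, by edgeR, DESeq2 and limma voom alike. Of all genes, 201 (1.55%) passed in edgeR for quizartinib in RPMI and 0 (0%) in the other 6 comparisons, where 93 to 573 genes had an unadjusted p under 0.05. Of the 9 genes 1 was under that level in 1 comparison, TAP2 when everolimus was added to quizartinib in hBMSC-CM. Its polysome minus input difference was -0.29, 0.02 and -0.12 with quizartinib and 1.23, 0.56 and 0.73 with combo. The groups did not overlap, and the fitted shift was 0.99 (SE 0.34, edgeR adjusted p = 1), in the same direction in 3 of 3 replicate numbers and 0.75 without replicate 1 of hBMSC-CM combo. For quizartinib in RPMI the values of the 9 ran from -0.38 (HLA-F, SE 0.36) to 0.47 (TAP2, SE 0.34), with a median of 0.14 beside 0.15 for all genes. B2M, at -0.32 (SE 0.57, edgeR adjusted p = 0.87), reached an adjusted p of 0.0462 with the replicate block within each fraction and the everolimus libraries left out (14% of all genes passed), and was not called with that block alone. Everolimus in hBMSC-CM gave the lowest values, -0.72 for TAP1 (SE 0.40), -0.65 for HLA-C (SE 0.40) and -0.54 for TAP2 (SE 0.34), each at an edgeR adjusted p of 1. In these 3 genes every everolimus culture lay below every vehicle culture. The 3 were named for their low values, and the share of all genes that did so was not counted, so nothing is concluded from this separation. Whatever sets the everolimus libraries apart cannot be told apart from the drug here either.

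The rest of the pathway was read from lists written by hand. Quizartinib in RPMI lowered 3 of 11 genes of peptide supply and folding in the endoplasmic reticulum and raised none, with a median log2 change of -0.28, where 18% of all genes were lower. The 3 were PSME2, a subunit of the PA28 proteasome activator, at -1.39 (SE 0.23, edgeR adjusted p = 1.01e-05), and the folding factors CALR (calreticulin) and PDIA3 (ERp57). PSME2 measured 121, 153 and 169 CPM with vehicle and 48, 52 and 68.7 CPM with quizartinib. The immunoproteasome subunits PSMB8 (-0.54, edgeR adjusted p = 0.0537), PSMB9 (0.15, edgeR adjusted p = 0.595) and PSMB10 (-0.16, edgeR adjusted p = 0.585) did not pass, while all 3 constitutive subunits they replace fell, by 1.03 for PSMB5, 0.66 for PSMB6 and 0.54 for PSMB7. ERAP2, a peptide-trimming enzyme, had the highest value of the 11 (0.52, edgeR adjusted p = 0.284).

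Of 16 regulators of class I transcription 15 could be tested, and with quizartinib in RPMI 6 rose and 2 fell, where 16.6% of all genes were higher and 18% lower. The 6 were STAT2, JAK2, IRF2, JAK1, IFNGR2 and IRF1, and the 2 were RFXAP, a subunit of the RFX complex, and NFKB1. STAT2, a transcription factor of the type I interferon response, had the largest change. It measured 31.1, 48.1 and 50.1 CPM with vehicle and 130, 176 and 175 CPM with quizartinib, a log2 change of 1.90 (SE 0.26) with an edgeR adjusted p of 3.16e-07. IFNGR1, IFNAR1, IFNAR2 and SOCS1, also of interferon signalling, did not pass (0.24 to 0.51). IRF1, an interferon-induced activator of TAP1 and heavy chain genes, rose by 0.52 (SE 0.16, edgeR adjusted p = 0.00919), from 22.4, 20.2 and 24.2 CPM to 33.3, 28.1 and 34.7 CPM. RFXAP had the lowest value (-1.04, edgeR adjusted p = 0.00102). None of 6 interferon genes passed the filter, and the highest count in any library was 3, for IFNL1.

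Between the media under quizartinib, 2 of 11 genes of the first list were higher in hBMSC-CM, where 8.16% of all genes passed in either direction, PSME2 (0.72, SE 0.23, edgeR adjusted p = 0.0405) and PDIA3 (0.56, SE 0.16, edgeR adjusted p = 0.026). Of the 15 regulators 2 were higher, the interferon gamma receptor chain IFNGR1 and SOCS1, a feedback inhibitor of JAK kinases. SOCS1 measured 12.5, 9.79 and 13.9 CPM in hBMSC-CM quizartinib and 3.42, 4.95 and 6.39 CPM in RPMI quizartinib (1.29, SE 0.30, edgeR adjusted p = 0.00314). JAK2 had the lowest value (-0.70, SE 0.29, edgeR adjusted p = 0.155). In this comparison IRF1 stood at 0.22, PSMB8 at 0.30, PSMB9 at 0.16 and PSMB10 at -0.14, and none of these 4 passed. Without drug no gene of either list passed the edgeR test between the media (1.51% of all genes did). Quizartinib in hBMSC-CM lowered 1 of the 11 (PSME2, -0.74, edgeR adjusted p = 0.0279) and raised 5 of the 15 regulators. Of all genes 12.3% passed in that comparison in either direction, and 44.4% of those were higher. STAT2 again had the largest change (1.31), and IRF2 passed at an edgeR adjusted p that rounds to 0.05.

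In heavy polysomes most genes of peptide supply were over-represented as well. Of the 11, 7 or 8 were higher in polysomes than in input in each condition and 0 to 4 were lower, and all 3 constitutive proteasome subunits were higher in each. Of the 15 regulators 2 to 5 were higher and 3 to 6 lower. Over the 7 conditions 27.9 to 32.9% of all tested genes were higher. In either direction 7492 to 8457 of the 12939 tested genes passed, and 46.6 to 53.9% of those were higher.

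**Figure D4:**
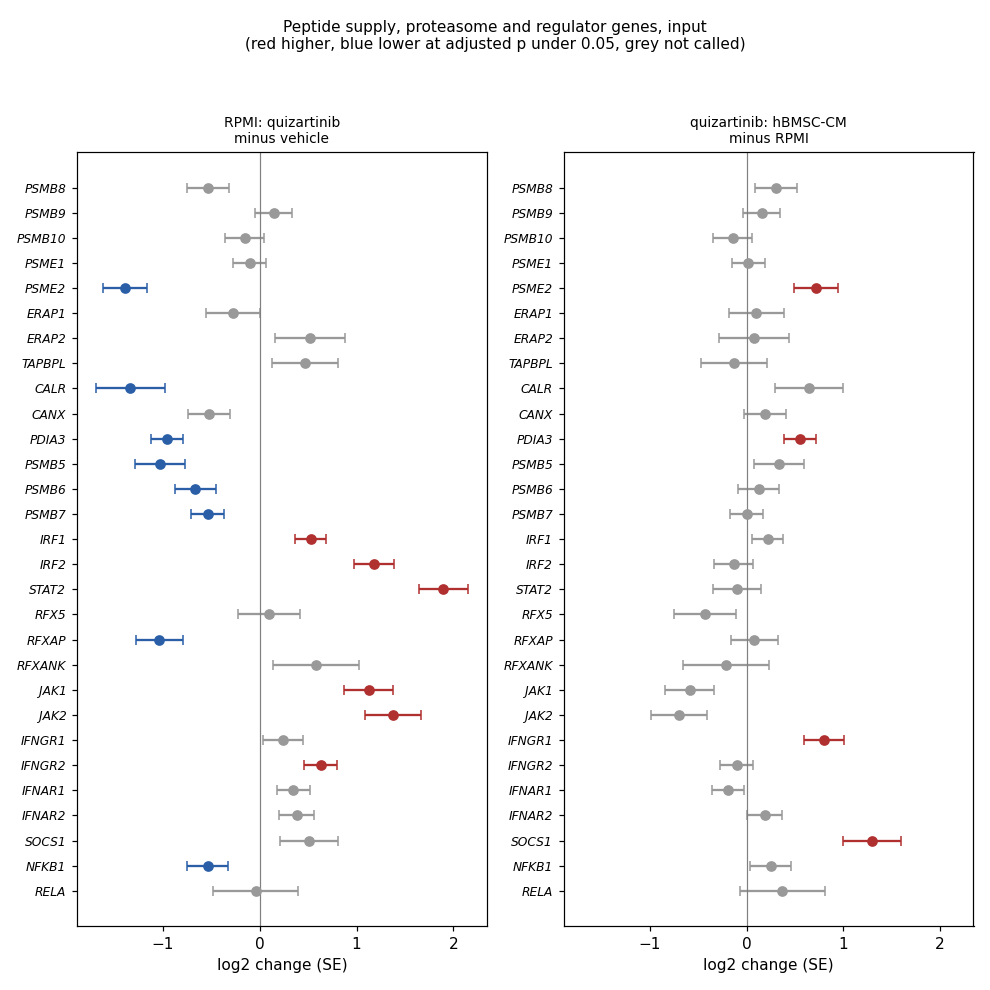
Log2 change of the input level with its SE (edgeR) of the tested genes of peptide supply, the constitutive proteasome and class I regulation, for quizartinib in RPMI and for hBMSC-CM against RPMI under quizartinib. Red is higher and blue lower at an adjusted p under 0.05, and STAT2 at 1.90 and PSME2 at -1.39 are the extremes of the first panel.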

How the data were processed

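The deposited file holds raw read counts per gene for 42 libraries, with 58884 rows. Per the labels and the study's methods, the authors made poly(A) libraries from input and from heavy fractions of sucrose gradients, aligned reads with STAR 2.6.0a to hg38 and counted them per Ensembl gene, without normalization. Whether counting used strand is not given in the sources used here. Rows sharing a name were summed. Genes with a mean count and a mean CPM of at least 1 were kept (12939, 99.8% of counts). Total counts were 19.4 to 38.8 M per library. Counts measure shares of a library, not amounts per cell.

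All libraries entered 1 edgeR 4.0.16 quasi-likelihood fit (R 4.3.3) that used TMM factors and estimated 14 group means, leaving 28 residual degrees of freedom and using no replicate block. Polysome changes were tested as the interaction with the fraction. CPM were TMM-scaled, except for marker sums, and log2 CPM used a prior count of 2. Intervals are 2 SE. The replicate numbers pair the samples of the 6 conditions other than everolimus alone: all 45 same-number input pairs and all 45 polysome pairs had r over 0.1, whereas 0 of 18 input pairs with everolimus did. This comes from the data and not from the labels.

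Gene positions and exon lengths came from a GENCODE annotation of GRCh38, the same assembly but another annotation release than the authors'. Alternatives were RLE factors, library size only, DESeq2 1.42.0, limma voom (limma 3.58.1), no filter, only the libraries compared, replicate and culture blocks, and each culture left out. Leaving the everolimus libraries out, with and without the block, was chosen after seeing the data. The scripts were tested on simulated data. The 9 genes and the lists were chosen with earlier results of these data known. All 9 genes are named. Of the lists, the genes with the smallest and largest change under quizartinib in RPMI and between media under quizartinib are named, with IRF1 and the 3 immunoproteasome subunits. Other genes of the lists were named after their values were seen. 1 gene of the regulator list is not reported here and was left out of its counts.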

Additional observations from a re-analysis of the deposited data

How the results depend on the processing

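No gene changed the sign of a called change under any alternative. The number of genes called for quizartinib in RPMI rose from 4 to 8 with the replicate block within each fraction, also with the everolimus libraries left out (8). In hBMSC-CM it rose from 1 to 2, and to 5 with those libraries left out. Between media without drug it rose from 0 to 1 under both, and for the difference between media in the drug effect, and for the polysome change with quizartinib in RPMI, from 0 to 1 with those libraries left out. For everolimus in hBMSC-CM, where the numbers share only a label, it was 1 with DESeq2, limma voom, the replicate block and the replicate block within each fraction, against 0. Between media under quizartinib it ran from 0 to 1 as cultures were left out. The replicate block and pairing changed no other count by over 1.5 times. Counted once per gene, comparison and alternative, 39 values gained and 31 lost a call, so 1 gene can count several times. Another 6 uncalled values changed sign with a shift of at least their SE, and the remaining 3029 were counted as the same. Uncalled values that shifted without a change of sign were not counted. With 3 cultures a group, an uncalled gene may still differ, and leaving a culture out assumes that the remaining 2 vary like the other groups. Low counts limit TAP2 and HLA-F.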

Other observations

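Over the 21 input libraries, the 4 genes most like the mean standardized level of the 9 genes (Pearson r of log2 CPM, 8621 genes compared, all averaging 10 CPM or more) were AC124319.1 (r = 0.948), LAPTM5 (r = 0.946), GRN (r = 0.946) and PLXDC2 (r = 0.944). These points share cultures and media, and the values are descriptions. The genes most like NLRC5 alone were SLC16A3 (r = 0.929), IL17RA (r = 0.927) and CD93 (r = 0.924). Of the 9 genes themselves HLA-C followed the mean most closely (r = 0.882), NLRC5 the least among those with a positive value (r = 0.298), and TAP2 ran against it (r = -0.504). Each of the 9 is itself part of that mean, which raises its r, so these values cannot be set beside those of other genes. In input TAP2 ran against HLA-E (r = -0.788) and TAP1 (r = -0.644), and in polysomes, over the same 21 cultures, these values were -0.183 and 0.173.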
